A study of Mus musculus with 13 samples.

Results

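H3K27ac is the acetylation of histone H3 at lysine 27 found at active promoters and enhancers. By presence or absence of a call, mouse macrophages gained it at 2745 regions after 4 h of interferon-γ (IFNγ). It was still called there when interleukin-4 (IL-4) was given together with IFNγ. These regions were chosen from lists of enriched islands, stretches of the genome where sequenced fragments pulled down with an antibody against H3K27ac exceed a control. Islands of 13 libraries that overlapped by at least 1 bp were merged into 39569 union regions. A region was kept when it held an island with IFNγ plus IL-4 at 4 h and with IFNγ alone at 4 h, and none with IL-4 alone at 4 h or in untreated cells. The 2745 regions are 6.94% of all union regions. The number was 1110 when a 2-fold difference from both untreated cells and IL-4 alone was asked for (chosen after seeing the data). A further 2785 regions held an island with IFNγ alone at 4 h and lost it when IL-4 was added, and they are used for comparison where stated. The 4 libraries named by this choice cannot test it, so their values are given as a description, and the other 9 libraries carry the comparisons. The islands of these 9 also took part in the merging into union regions. With islands merged over only the 4 libraries, 3207 regions would be kept.

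All libraries came from bone marrow-derived macrophages of C57BL/6 mice on day 7 of differentiation in medium conditioned by L929 cells, and used the same antibody. The cytokine experiment had cells given IFNγ (100 ng/ml) with IL-4 (10 ng/ml) for 2 h or 4 h, IFNγ alone (100 ng/ml) for 2 h or 4 h, IL-4 alone (10 ng/ml) for 2 h or 4 h, and untreated cells. In the knockdown experiment, cells labelled shJunB, shCEBP-beta or scramble were each given IFNγ (100 ng/ml) for 4 h or left untreated. JunB and C/EBP-beta are transcription factors of the AP-1 and C/EBP families. Each condition had 1 library, so no value of a condition has a replicate check, and p-values over the 3 shRNA backgrounds measure only the spread between those libraries. Folds of reads for single regions carry a 95% interval by the exact binomial method, and ranges of folds over several regions do not. The interval covers counting error only and no spread between libraries, since each condition had 1 library. Reads had no molecular identifiers. The labels do not say whether libraries shared a culture or an animal.

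The cytokine libraries held 21.7 to 37.4 M reads and the knockdown libraries 14.3 to 29.5 M, of which 65.1% to 80.0% lay in islands. IFNγ plus IL-4 (37.4 M) and IFNγ alone (35.7 M) at 4 h, which had to hold an island, were the deepest libraries, and IL-4 alone at 4 h (25.5 M) and untreated cells (21.7 M), which had to lack it, were shallower. The part of depth in the choice of regions was not tested. The mirrored choice, an island with IL-4 alone at 4 h and in untreated cells and none in either IFNγ library at 4 h, gave 873 regions. All 8 macrophage marker genes (Adgre1, Csf1r, Cd68, Mertk, Spi1, Itgam, Cd14 and Lyz2) had H3K27ac in all 13 libraries. Islands over Junb held 7062 and 6272 normalised reads in shJunB cells with and without IFNγ, against 7235 and 6233 in scramble cells, and islands over Cebpb held 12204 and 7744 in shCEBP-beta cells, against 12631 and 7565 in scramble cells. Acetylation over a gene does not measure whether its RNA was knocked down.

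IFNγ binds its receptor on macrophages and activates JAK kinases, and genes of host defence and antigen presentation are then switched on through DNA elements called GAS. Factors of the IRF family act on many of these genes through interferon-stimulated response elements (ISRE). IL-4 acts through STAT6, drives a different macrophage state and is known to restrain part of the IFNγ programme.

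Promoter sequence was available for the 110 regions that held a whole RefSeq promoter window, 250 bases before to 50 after a transcript start, and is shown because H3K27ac is a mark of active promoters. Such windows numbered 131, from 114 genes. Of them 11 (8.40%) held the ISRE pattern, GAAA and GAAA with any 2 bases between them, on either strand, against 3.35% of all 21263 windows and 3.34% of the 12505 windows that lay whole in any union region. The GAS pattern TTCNNNGAA was in 6 windows (4.58%), against 7.69% of all windows. A match is a description of these letters and not evidence of a bound factor. The 30 bases around the ISRE pattern in each of the 11 windows are given below, 5′ to 3′ on the strand of the gene, with the pattern in capitals (RefSeq, GRCm38.p6), in the order chr1 Ifi203, Ifi208, Ifi211 and Ifi213, chr7 Trim5, chr9 Piwil4, chr11 Gm12185, chr13 Pcsk1, chr14 Phf11b, chr15 Apol10b and chr19 Ifit1bl1.
Ifi203: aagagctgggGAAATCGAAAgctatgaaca
Ifi208: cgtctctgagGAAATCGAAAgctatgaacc
Ifi211: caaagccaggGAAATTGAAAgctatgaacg
Ifi213: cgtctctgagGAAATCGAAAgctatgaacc
Trim5: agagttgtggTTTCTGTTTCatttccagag
Piwil4: gaataaaaaaGAAAAAGAAAgacatagaca
Gm12185: tccaggaataGAAAGTGAAAcctactctga
Pcsk1: accagtttctTTTCCTTTTCttaatccttc
Phf11b: cacatttagaGAAAAAGAAActagaaacta
Apol10b: gaaattttacTTTCATTTTCgtgcactgag
Ifit1bl1: actctgtaggTTTCATTTTCtgtaagttgg
The 4 Ifi genes encode members of the HIN-200 family of interferon-inducible DNA sensors, and their stretches share the bases after the pattern except the last. Those of Ifi208 and Ifi213 are identical over all 30 bases. Reads from such close copies can be hard to place, and how they were placed here was not tested.

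The promoter of Klrk1, which lay in a chain of regions described further on, and that of Gm12185, which held both a GAS and an ISRE pattern, are shown whole. Both genes lie on the minus strand, Klrk1 at chr6:129623815-129624114 and Gm12185, a predicted gene, at chr11:48927133-48927432. Capitals mark GAS and ISRE patterns, and the Klrk1 window has none.
Klrk1: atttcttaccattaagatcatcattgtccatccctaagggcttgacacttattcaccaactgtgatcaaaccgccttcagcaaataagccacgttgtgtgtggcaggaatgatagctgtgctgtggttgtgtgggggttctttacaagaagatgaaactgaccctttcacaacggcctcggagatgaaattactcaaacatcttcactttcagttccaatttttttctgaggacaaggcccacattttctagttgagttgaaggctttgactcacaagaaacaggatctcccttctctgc
Gm12185: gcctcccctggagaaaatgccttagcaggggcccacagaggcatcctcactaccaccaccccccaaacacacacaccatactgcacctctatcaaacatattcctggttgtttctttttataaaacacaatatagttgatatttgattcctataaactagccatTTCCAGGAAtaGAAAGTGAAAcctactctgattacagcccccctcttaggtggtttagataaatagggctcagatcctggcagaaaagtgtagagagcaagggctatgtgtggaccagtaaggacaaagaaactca
In Gm12185 the GAS pattern began 86 bases and the ISRE pattern 75 bases before the transcript start. The region over Gm12185 (chr11:48921601-48929400) had 450.4 and 574.5 normalised reads with IFNγ plus IL-4 at 2 h and 4 h, and 449.0 and 750.2 with IFNγ alone. With IFNγ in the knockdown experiment it had 463.8 in shJunB, 421.5 in shCEBP-beta and 353.4 in scramble cells. It held no island in any of the 6 libraries without IFNγ.

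Among the other regions with an ISRE window, all but that of Pcsk1 were already called at 2 h with IFNγ, with and without IL-4. Ifi208 had 240.1 and 159.2 normalised reads with IFNγ plus IL-4 at 2 h and 4 h, and 222.8 and 227.3 with IFNγ alone. Ifi213 had 165.4 and 141.1 with both cytokines, and 136.1 and 201.8 with IFNγ alone. Both were also called in untreated cells of the knockdown experiment. There Ifi208 had 46.5 reads in scramble and 42.7 in shJunB cells, and Ifi213 had 67.0 in scramble, 46.5 in shJunB and 67.1 in shCEBP-beta cells. Piwil4, a member of the Argonaute family that binds small RNAs, had 61.8 and 607.9 reads with both cytokines, and 116.4 and 735.2 with IFNγ alone. Its level was thus higher at 4 h than at 2 h in both treatments. Apol10b, of the apolipoprotein L family, had 128.5 and 198.0 reads with both cytokines, and 191.0 and 337.6 with IFNγ alone. Trim5, of a family of antiviral restriction factors, had 29.9 and 58.9 reads with both cytokines, and 85.6 and 90.0 with IFNγ alone, and was not called in the knockdown experiment. The Ifit1bl1 region held islands in all 6 knockdown libraries, with 346.5 and 183.0 reads with and without IFNγ in shJunB cells, 277.4 and 145.4 in shCEBP-beta cells, and 243.8 and 254.0 in scramble cells. In scramble cells it therefore had no more H3K27ac with IFNγ than without. Pcsk1, a prohormone convertase, was called at 4 h and not at 2 h in the cytokine experiment, with 185.3 reads with both cytokines and 348.1 with IFNγ alone.

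Most of the regions kept lay away from promoters. A transcript start was held by 116 (4.23%), against 22.2% of all union regions, 5.54% of the 13373 regions without an island in untreated cells or with IL-4 alone at 4 h, and 3.12% of those lost when IL-4 was added. Within the span of a protein-coding gene but away from its starts were 1491 (54.3%, against 45.3% of all regions). Outside genes lay 1138 (41.5%, against 32.4%), at a median of 30.7 kb from the nearest gene and over 100 kb away in 241 cases. Of the 13373 regions 53.2% lay within genes away from starts and 41.3% outside genes, shares near those of the regions kept. Whether a position was exonic or intronic was not determined. The regions kept had a median length of 5200 bp (quartiles 3400 and 8000 bp, range 400 to 48400 bp). The median was 5400 bp over all regions and 3200 bp over the 13373. With 1 kb added at each side of genes, 1643 regions touched 1424 genes, and 1127 of these genes (79.1%) also touched a region called in untreated cells. That share was 89.1% of the 14658 genes touched by any region and 79.7% of the 1263 touched by a region lost when IL-4 was added.

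In the 2 libraries that had to hold an island, the regions had a median of 101.7 normalised reads with IFNγ plus IL-4 at 4 h (quartiles 59.5 and 205, range 22.1 to 3029) and of 153.8 with IFNγ alone (82.5 and 311, range 19.5 to 3177). Normalised reads are reads of a region divided by a size factor of the library. Fewer reads with both cytokines than with IFNγ alone were found in 2051 regions (74.7%), against 55.0% of all 21257 regions called in both libraries. By a size rule, which asks for a 2-fold difference and for 50 or more normalised reads where the level is higher, 721 (26.3%) were lower and 114 (4.15%) higher with both, where 11.7% and 7.16% of all regions called in both libraries were lower and higher. Per kb of called length, the summed length of a region's islands in a library, 181 were lower and 6 higher. Fewer reads per kb with both cytokines were found in 2171 regions (79.1%), against 63.7% of all 21257. The median log2 ratio per kb was -0.33, against -0.14 over all. These values were used by the choice of regions and support nothing further. The false discovery rate (FDR) of the islands, from the deposited files, was at most 1e-06 in both libraries in 2274 regions and above 0.001 in the weaker library in 132. Just inside the threshold of 0.01 were Mboat4, with an FDR of 0.00203729 and 100 reads with both cytokines and 0.00973396 and 94 reads with IFNγ alone, and a region of Nfkb1, with 0.0092486 and 86 reads with both. Just outside were 638 regions kept out by an island in untreated cells alone, the weakest of which was at Epb41l3, with 57 reads and an FDR of 0.00969227 in untreated cells.

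At 2 h and in the knockdown experiment, IFNγ libraries held these islands far more often than libraries without it. The islands of these libraries entered the choice only through the merging into union regions. With IFNγ plus IL-4 at 2 h 1584 (57.7%) of the regions kept had an island, and with IFNγ alone at 2 h 1643 (59.9%), while with IL-4 alone at 2 h 194 (7.07%) had one. Over all union regions these shares were 60.9%, 57.0% and 53.7%. Over the 13373 regions without an island in untreated cells or with IL-4 alone at 4 h, which include the regions kept, they were 31.6%, 27.2% and 5.72%, so the low share with IL-4 alone was common to regions lacking these islands. In shJunB cells 1749 (63.7%) had an island with IFNγ and 318 (11.6%) without, in shCEBP-beta cells 1765 (64.3%) and 462 (16.8%), and in scramble cells 1569 (57.2%) and 451 (16.4%). The scramble library with IFNγ was the shallowest of all, with 14.3 M reads. Of the regions kept, 2048 were called in at least 1 of the 6 knockdown libraries. Islands in all 3 IFNγ libraries and none of the 3 untreated ones were present in 855 of these 2048 (31.1% of all regions kept). Of all regions called in the knockdown experiment 4.85% showed this pattern. The reverse pattern was present in 1 region kept, against 3.94% of all regions called in that experiment.

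**Figure D1:**
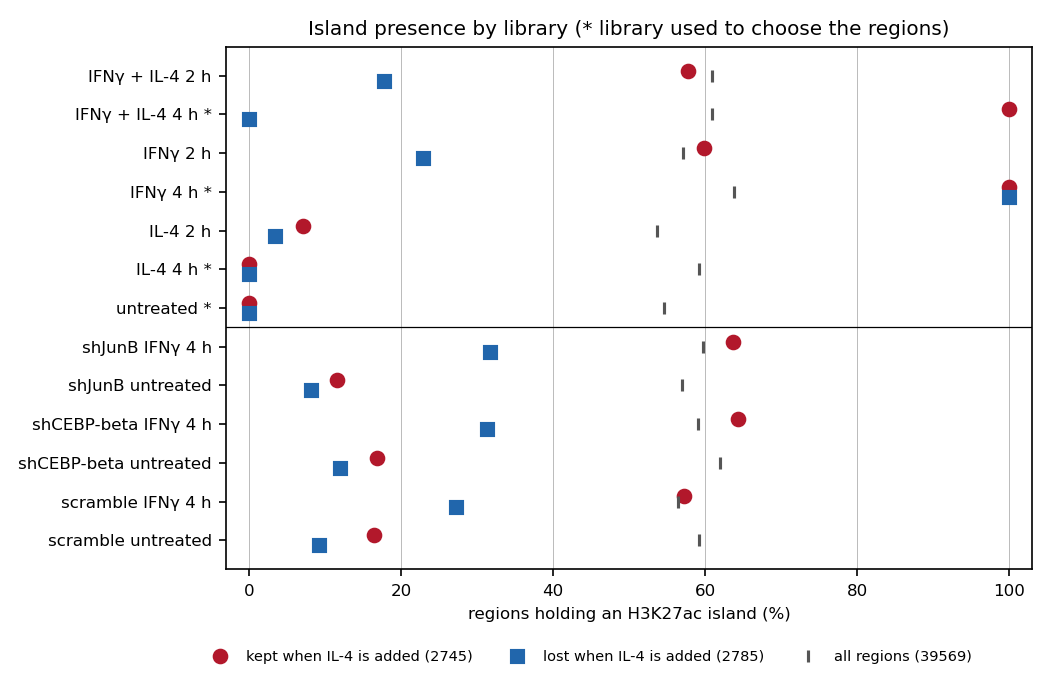
Share of regions holding an H3K27ac island in each of the 13 libraries, for regions gained with IFNγ at 4 h and kept with IL-4 (circles), regions gained and lost with IL-4 (squares) and all union regions (vertical ticks). In the 5 IFNγ libraries without an asterisk the circles lie between 57.2% and 64.3%, and in the 4 other libraries without an asterisk between 7.07% and 16.8%.

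Regions lost when IL-4 was added had islands less often in the same 9 libraries. With IFNγ plus IL-4 at 2 h 57.7% of the regions kept and 17.8% of those lost had an island, and with IFNγ alone at 2 h 59.9% and 22.9%. With IFNγ in scramble cells the shares were 57.2% and 27.3%. No replicate allows a test of these differences, and the regions kept were longer (median 5200 bp against 3000 bp) and had more reads with IFNγ alone at 4 h (median 153.8 against 66.8). The part of length and level in these shares was not tested. In all 5 of the IFNγ libraries not named by the choice and in none of the other 4 were 412 regions kept (15.0%) and 32 regions lost (1.15%), against 1.26% of all union regions. Conversely 316 regions kept (11.5%) and 1179 regions lost (42.3%) had no island in any of the 9 libraries, against 8.74% of all.

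The 412 regions had a median length of 7600 bp, and 17 (4.13%) held a transcript start. Their median was 145 normalised reads with IFNγ plus IL-4 and 215 with IFNγ alone at 2 h, and 312 of 412 had fewer reads with both. Among them were several of the regions densest in reads with IFNγ alone at 4 h. A region in Il23r, the receptor for interleukin-23 (chr6:67439601-67447600), had 704.4 and 1387 reads with IFNγ plus IL-4 at 2 h and 4 h, and 777.2 and 1713 with IFNγ alone. The same Il23r region had 402.4, 423.5 and 430.3 reads with IFNγ in shJunB, shCEBP-beta and scramble cells. A region in Arfgef1, which activates ARF GTPases of the secretory pathway (chr1:10215801-10224800), had 928.6 and 1209 reads with both cytokines, 1154 and 1738 with IFNγ alone, and 698.4, 688.9 and 575.9 with IFNγ in shJunB, shCEBP-beta and scramble cells. Both were without an island in all 6 libraries that had no IFNγ. A region in Atp5pb, a subunit of the mitochondrial ATP synthase (chr3:105940601-105944600), had 1161 and 578.5 reads with both cytokines, and 1146 and 1060.0 with IFNγ alone. The Atp5pb region thus stood level between the treatments at 2 h and lower with IL-4 added at 4 h. A region 37.4 kb from Vwa3b (chr1:36979801-36991800), among the densest but not among the 412, had 1674 and 1489 reads with both cytokines, and 1644 and 2763 with IFNγ alone, and was called in the untreated libraries of the knockdown experiment at 74.9 in shJunB, 129.8 in shCEBP-beta and 129.7 in scramble cells.

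Genes of the interferon response were touched within 1 kb at a share near that of all genes. Of 110 genes of the interferon lists that had any region 12 (10.9%) were touched, against 1424 of 14658 protein-coding genes (9.71%). An island in untreated cells was present at 8 of these 12 and at 92 of the other 98, against 89.1% of the 14658 genes. With 10 kb added at each side of genes, 20 (18.02%) were touched, against 11.8% of protein-coding genes. The guanylate-binding proteins (GBP) and immunity-related GTPases, which attack the vacuoles of intracellular pathogens, had the highest count of these lists with 6 of 17. For antiviral effectors it was 1 of 22, for interferon regulators 1 of 18, for classical activation 2 of 27, for MHC class II 1 of 12 and for MHC class I with antigen processing 2 of 16.

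The Gbp4 region (chr5:105135601-105155400, 19.8 kb) was the strongest of these genes. It had 1149 and 2021 normalised reads with IFNγ plus IL-4 at 2 h and 4 h, 1604 and 2767 with IFNγ alone, and 139.8 with IL-4 alone at 2 h. With IFNγ it had 1354, 1381 and 1263 reads in shJunB, shCEBP-beta and scramble cells, and no island in any untreated library. All IFNγ libraries thus stood far above the library with IL-4 alone, and IFNγ alone at 2 h was 11.5-fold higher than IL-4 alone (9.62 to 13.8). Gbp8 (chr5:104999401-105016000) had 590.8 and 1042 reads with both cytokines, 716.8 and 566.4 with IFNγ alone and 43.9 with IL-4 alone at 2 h. The Gbp8 region was lower with both cytokines at 2 h and higher at 4 h.

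Gbp6 (chr5:105292201-105303400) had 392.6 and 706.2 reads with both cytokines, 697.0 and 877.8 with IFNγ alone and 51.0 with IL-4 alone at 2 h. It was called in all 6 knockdown libraries, with 574.5 and 92.9 reads with and without IFNγ in shJunB cells, 671.0 and 94.1 in shCEBP-beta cells, and 531.7 and 113.5 in scramble cells. IFNγ raised it in all 3 backgrounds (log2 fold change 2.58 ± 0.16, SE, edgeR quasi-likelihood test, adjusted p = 0.000596). With an offset for called length the Gbp6 value was 0.45 (edgeR adjusted p = 0.118), and the call was lost. Gbp2 (chr3:142635801-142650000) had 244.1 and 424.7 reads with both cytokines and 309.5 and 453.9 with IFNγ alone, and Tgtp1 (chr11:48992201-48998400), an immunity-related GTPase, 471.3 and 488.9 with both and 532.4 and 570.2 with IFNγ alone. Without IFNγ the Gbp2 region was called in no knockdown library, and the Tgtp1 region had 78.7 reads in shJunB and 52.3 in shCEBP-beta cells and no island in scramble cells. The Gbp10 region had 28.1 reads with both cytokines and 64.5 with IFNγ alone at 4 h and was called in no other library.

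Among antigen presentation genes the levels differed widely. Nlrc5, which activates MHC class I genes (chr8:94483401-94488800), had 762.2 and 452.1 normalised reads with IFNγ plus IL-4 at 2 h and 4 h, 783.7 and 559.7 with IFNγ alone and 59.2 with IL-4 alone at 2 h. It was higher at 2 h than at 4 h in both treatments, and was called in untreated shCEBP-beta and scramble cells too, at 137.6 and 132.9 reads. Tap2, a subunit of the transporter that carries peptides to MHC class I, had 80.7 and 61.5 reads with both cytokines, and 95.5 and 165 with IFNγ alone. H2-Eb1, an MHC class II beta chain, had 133.5 and 84.9 reads with both, and 181.1 and 334.6 with IFNγ alone, and was called in all 6 knockdown libraries. There it had 255.5 and 194.4 reads with and without IFNγ in shJunB cells, 179.9 and 210.8 in shCEBP-beta cells, and 227.4 and 178.3 in scramble cells, and did not pass the test (log2 fold change 0.19 ± 0.18, SE, edgeR adjusted p = 0.430).

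Cd86, a ligand that co-stimulates T cells, had 147.5 and 76.2 reads with both cytokines, and 183.3 and 172.5 with IFNγ alone. Ido1, which degrades tryptophan, shares its region with Adam18 (chr8:24594001-24605800) and had 391.6 and 595.9 reads with both cytokines, against 397.4 and 373.6 with IFNγ alone. With IFNγ the Ido1 region had 52.6 and 67.6 reads in shJunB and shCEBP-beta cells and no island in scramble cells. Ifit3, an antiviral effector, had a region of 1.4 kb with 71.7 and 48.2 reads with both cytokines and 147.1 and 60.0 with IFNγ alone, which did not pass the test in the knockdown experiment (log2 fold change 0.44 ± 0.26, SE, edgeR adjusted p = 0.215).

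**Figure D2:**
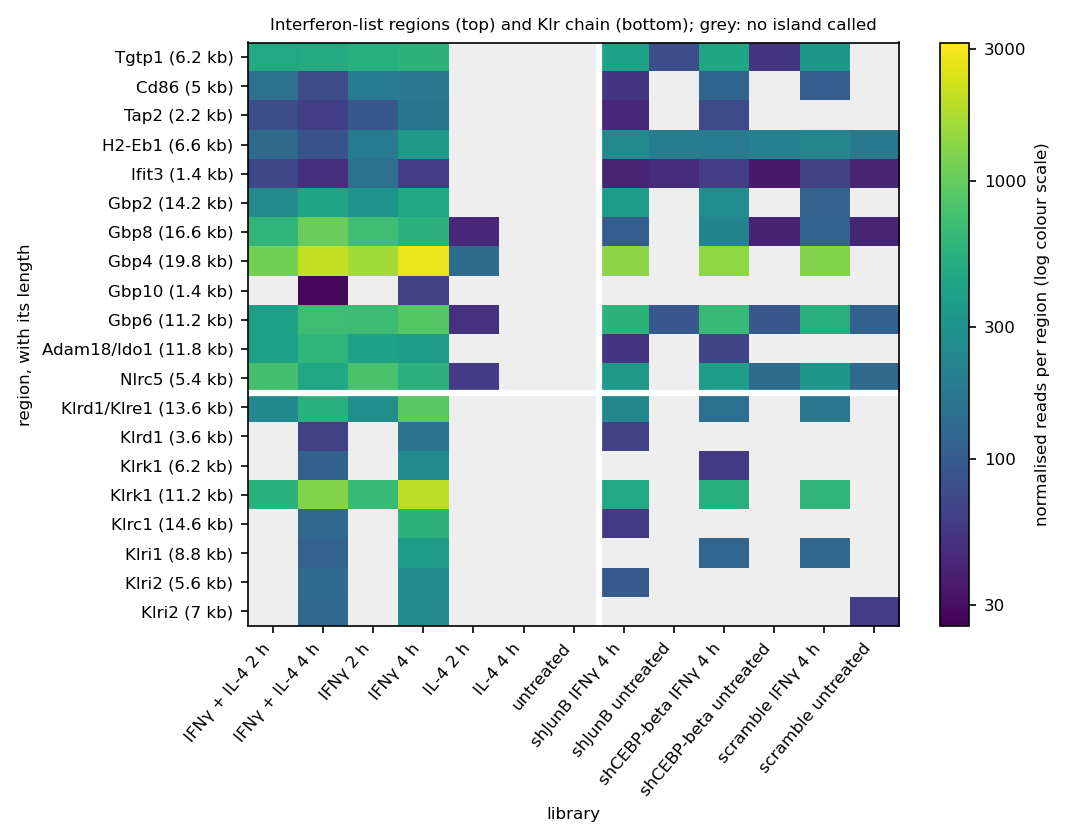
Normalised reads (log colour scale) of the 12 regions of interferon-list genes (upper block) and the 8 regions of the Klr chain (lower block) in each library, with each treatment left of its control. Grey cells, where no island was called, fill the columns of IL-4 at 4 h and untreated cells, which the choice of regions fixed, and nearly all cells of the Klr chain in libraries without IFNγ.

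Some regions kept lay near each other. With gaps of at most 50 kb, 858 (31.3%) lay in chains of at least 2, and 22 chains had at least 4 regions. Of the 2785 regions lost when IL-4 was added, 947 (34.0%) lay in such chains of their own, and 35 chains had at least 4. The share was 69.0% of the 13373 regions without an island in untreated cells or with IL-4 alone at 4 h. Over all 39569 union regions it was 95.3%. These larger sets are denser, so the shares cannot be compared directly, and closer grouping of the regions kept was not tested. The chain with the most regions held 8, over 173 kb of chr6 (129575201 to 129748200) in a cluster of Klr genes, which encode lectin-like receptors known from natural killer (NK) cells. They include Klrk1 (the activating receptor NKG2D), Klrd1 (CD94) and its partner Klrc1 (NKG2A). All 8 regions had fewer reads with both cytokines than with IFNγ alone at 4 h. The Klrk1 region with the promoter printed above (chr6:129620201-129631400) had 554.0 and 1263 normalised reads with IFNγ plus IL-4 at 2 h and 4 h, and 666.3 and 1918 with IFNγ alone. With IFNγ it had 476.9, 534.8 and 589.0 reads in shJunB, shCEBP-beta and scramble cells, and in none of the 6 libraries without IFNγ was it called. The region of Klrd1 and Klre1 had 242.1 and 544.4 reads with both cytokines, and 273.3 and 925.0 with IFNγ alone. In the other 6 regions no island was called at 2 h.

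Klrk1 was the only gene of the 5 NK cell markers touched by a region kept. Ncr1, Prf1 and Eomes, 3 defining markers of NK cells, had no island in any library, and Klrb1c had a region called in 6 libraries. Summed over the list, normalised reads were 625.7 and 1548 with IFNγ plus IL-4 at 2 h and 4 h, 862.8 and 2413 with IFNγ alone, 182.6 and 144.6 with IL-4 alone, and 219.7 in untreated cells. In the knockdown experiment the sum was 564 to 645 with IFNγ, and no island of the list was called in the 3 untreated libraries. Fewer cells carrying a mark and less of it per cell cannot be told apart in such bulk samples.

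Chrm3, the muscarinic acetylcholine receptor M3, was touched by 9 regions, more than any other gene, over 327 kb of chr13. All 9 had fewer reads with both cytokines than with IFNγ alone at 4 h. The longest of all the regions kept lay there (chr13:10316201-10364600, 48.4 kb), with 1215 reads with IFNγ plus IL-4 and 2788 with IFNγ alone at 4 h. At 2 h it had no island with both cytokines and 261.2 reads with IFNγ alone. With IFNγ it had 1110, 1138 and 926.1 reads in shJunB, shCEBP-beta and scramble cells, and none of their untreated libraries had an island there.

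Pcca, the alpha subunit of propionyl-CoA carboxylase, was touched by 7 regions over 144 kb of chr14, of which 3 had fewer reads with both cytokines than with IFNγ alone at 4 h. Its strongest region (chr14:122818201-122840800) had 311.9 and 1606 reads with both cytokines, and 411.6 and 1331 with IFNγ alone. Near Nampt, the rate-limiting enzyme of NAD salvage, 6 regions lay 83.5 to 192 kb from the gene on chr12, all lower with both cytokines at 4 h. The longest of these (chr12:32674201-32712600, 38.4 kb) had 270.0 and 503.6 reads with both cytokines, and 506.0 and 1229 with IFNγ alone.

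In a Gbp cluster on chr5 (105238401 to 105401800) 7 regions lay near Gbp6, Gbp10 and Lrrc8b, of which 4 had fewer reads with both cytokines at 4 h. Counted by chain, all 8, all 9 and all 6 regions were lower with both cytokines near Klr genes, Chrm3 and Nampt, and 3 of 7 and 4 of 7 near Pcca and the Gbp genes. Over all regions kept 74.7% were lower, against 55.0% of all regions called in both libraries. The chains were named after their values were seen, and a difference between them was not tested. At 4 h this is a description, since both libraries were used to choose the regions.

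Among the other longest regions, Tnfsf10, which encodes the death ligand TRAIL, had a region of 29.2 kb (chr3:27319601-27348800) with 401.9 normalised reads with IFNγ plus IL-4 at 4 h and 1096 with IFNγ alone. With IFNγ it had 781.7, 923.5 and 883.5 reads in shJunB, shCEBP-beta and scramble cells and no island without it. Tnfsf10 belongs to a list of 16 inflammasome and cell death genes, 5 of which were touched by a region kept, against 9.71% of all genes. The others were Nlrc4, an inflammasome sensor, Casp8, an initiator caspase, the death receptor gene Fas and Bcl2l14, of the BCL2 family. Nlrc4 had 258.8 reads with both cytokines and 388.6 with IFNγ alone at 4 h, no island at 2 h, and 213.8, 365.8 and 248.7 reads with IFNγ in shJunB, shCEBP-beta and scramble cells. The regions of Casp8 (57.5 and 71.3 reads), Fas (66.9 and 69.0) and Bcl2l14 (48.2 and 91.5) were weak with both cytokines and with IFNγ alone at 4 h.

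Other lists were touched in few or no genes. No gene of 18 AP-1, BATF and C/EBP factors or of 18 glycolysis and hypoxia genes was touched. For alternative activation it was 1 of 29 (the chemokine gene Ccl22), for NF-kB and inflammatory genes 1 of 25 (Nfkb1) and for cholesterol synthesis 1 of 20 (Fdft1). The marker lists of macrophages, T cells, B cells, dendritic cells, neutrophils, mast cells and basophils, fibroblasts and endothelial cells had none. Gpd2, the mitochondrial glycerol-3-phosphate dehydrogenase, had a region of 35.8 kb (chr2:57284401-57320200) with 246.1 and 476.8 reads with both cytokines, and 399.6 and 2965 with IFNγ alone. The Gpd2 region thus had far more reads at 4 h than at 2 h with IFNγ alone. In the knockdown experiment it had 714.8 and 113.8 reads with and without IFNγ in shJunB cells, 1684 and 204.7 in shCEBP-beta cells, and 1841 and 313.4 in scramble cells (log2 fold change 2.77 ± 0.13, SE, edgeR adjusted p = 0.000474). With an offset for called length the Gpd2 value was 0.95 (edgeR adjusted p = 0.000941).

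Whether IFNγ and IL-4 together differed from IFNγ alone could be examined at 2 h, in libraries that entered the choice only through the merging of islands. Islands were called in both 2 h libraries in 1420 regions. Of these, 43 (3.03%) were higher and 180 (12.7%) lower with both cytokines by the size rule, where 4.91% of all regions called in both were higher and 6.68% lower. The median log2 ratio was -0.21 (quartiles -0.64 and 0.16), against -0.01 over all 20847 such regions, and the median level was 149 normalised reads with both cytokines and 186 with IFNγ alone. Fewer reads with both were found in 928 (65.4%), against 50.6% of all. The direction turned per kb of called length. Fewer reads per kb with both cytokines were then found in 600 of the 1420 (42.3%), against 36.7% of all, and the median log2 ratio was 0.07, against 0.11 over all. By the size rule 9 were then lower and 15 (1.06%) higher, where 1.65% of all were higher. The called length was shorter with both cytokines in 68.0% of the 1420, against 59.5% of all. The lower reads with IL-4 at 2 h thus went with islands of shorter called length. There was no replicate with which to test this difference.

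**Figure D3:**
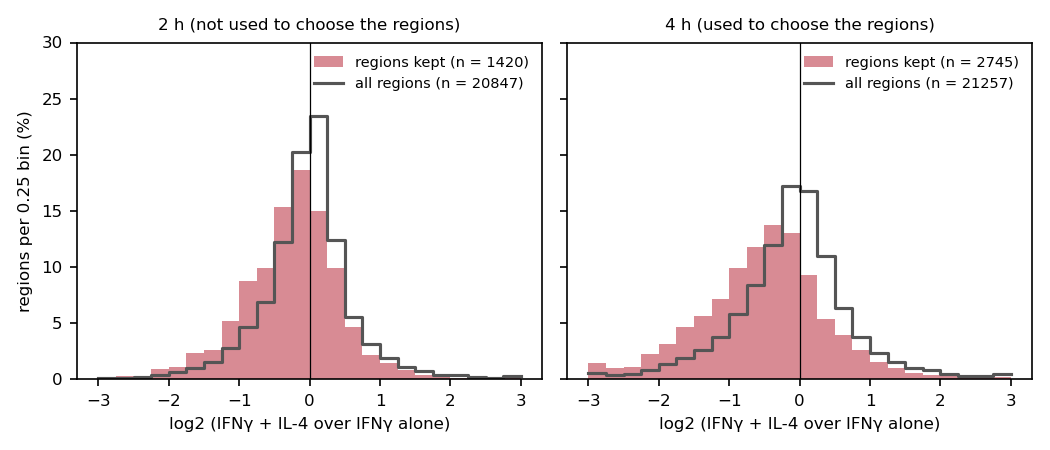
Distribution of the log2 ratio of normalised reads, IFNγ plus IL-4 over IFNγ alone, at 2 h (left) and 4 h (right), for regions kept (filled) and all regions called in both libraries (line), as the share of regions in bins of 0.25. Ratios beyond the axis are counted in the end bins, and the filled distributions lie left of the lines, with medians of -0.21 against -0.01 at 2 h.

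The regions that stood lowest with both cytokines at 2 h were mostly outside genes. A region 18.9 kb from Rap2c had 53.8 reads with IFNγ plus IL-4 and 410.5 with IFNγ alone (7.63-fold lower, 5.72 to 10.3). A region in Il2rb, the beta chain of the receptors for interleukin-2 and interleukin-15 (chr15:78509201-78517000), had 39.9 reads with both and 234.9 with IFNγ alone (5.89-fold lower, 4.19 to 8.48). At 4 h the Il2rb region had 143.8 with both and 381.9 with IFNγ alone. The other 6 of the 8 lowest lay near Slc22a8, Rpn1, Wnt2, Cdyl, Parp11 and Atp6ap2, with ratios 5.07 to 7.23-fold lower, and all 8 had fewer reads with both cytokines at 4 h too. Per kb of called length most of these differences were small. The log2 ratio was then -0.24 for Il2rb and for the region near Rpn1, -0.28 near Atp6ap2, -0.84 near Parp11, -0.93 near Wnt2, -0.96 near Rap2c and -1.27 near Slc22a8. Near Cdyl it changed sign, to 0.65.

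Among the regions that stood highest with both cytokines at 2 h, the top was in Btbd16 (chr7:130810401-130822800), with 1050 reads with both and 124.0 with IFNγ alone (8.47-fold higher, 6.97 to 10.4), and 178.6 with IL-4 alone. A region in Pgm1, a phosphoglucomutase of glycogen metabolism (chr4:99968601-99987400), had 1108 reads with both and 239.3 with IFNγ alone (4.63-fold higher, 4.00 to 5.38), and at 4 h 1807 with both and 397.6 with IFNγ alone. The Pgm1 region had 94.9 reads with IL-4 alone at 2 h, so the library with both cytokines exceeded each cytokine alone. Others lay near Gas7, in Ldah, in Calhm4 with Trappc3l, in Sptbn1 and in En2, with ratios of 3.21 to 4.82-fold. At 4 h these 5 regions, like those of Btbd16 and Pgm1, had more reads with both cytokines than with IFNγ alone. Per kb of called length the log2 ratios at 2 h were 1.02 for Btbd16, 1.36 for Pgm1, 1.27 near Gas7 and 1.04 for Ldah, and 0.70 to 0.89 for the other 3.

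At 4 h the extremes were wider and are a description only. Il1f10, of the interleukin-1 family (chr2:24291001-24298400), had 39.5 reads with both cytokines and 1019 with IFNγ alone, and Lnx1, a ubiquitin ligase, had 44.8 with both and 862.7 with IFNγ alone. A region of 39.6 kb that lay 12.4 kb from Myo10, an unconventional myosin of filopodia, had 92.3 with both and 1530 with IFNγ alone. These 3 regions count as kept because an island was called with IL-4 added, at a far lower level than with IFNγ alone. In the other direction Cdc73, of the PAF1 transcription complex, had 768.4 reads with both cytokines and 87.8 with IFNγ alone, and Pid1 had 812.6 with both and 121.5 with IFNγ alone. Per kb of called length the log2 ratio was -2.33 for Il1f10, -1.34 for Lnx1, -0.85 near Myo10, 1.36 for Cdc73 and 0.12 for Pid1.

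Against IL-4 alone at 2 h, 171 regions kept were called both there and with IFNγ alone. Of these 104 (60.8%) were higher with IFNγ and 1 lower, where 15.2% of all such regions were higher and 10.2% lower, and the median log2 ratio was 1.35, against -0.04 over all. With IFNγ plus IL-4 over IL-4 alone 85 of 164 (51.8%) were higher and 3 lower, where 13.6% and 11.6% of all were, with a median of 1.07, against -0.06. These comparisons share the library with IL-4 alone. Counted per kb of called length, 48 of 171 (28.1%) were higher with IFNγ alone, against 5.35% of all, and 53 of 164 (32.3%) with both cytokines, against 6.98% of all. These counts leave out the many regions without an island with IL-4 alone, for which no level was measured. The planned setting filled these in, and nothing is read from its direction, since 1472 of 1666 regions had an island with IFNγ alone and not with IL-4 alone, and 1420 of 1614 with both cytokines and not with IL-4 alone. With a missing island set to the 5th percentile of reads per island of its library, 1043 of 1666 were higher and 6 lower with IFNγ alone over IL-4 alone, where 19.4% and 11.6% of all regions were. On that footing 877 of 1614 were higher and 17 lower with both cytokines over IL-4 alone, where 17.3% and 13.3% of all were. With both cytokines over IFNγ alone it was 56 of 1807 higher and 276 lower, where 6.26% and 8.99% of all were.

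Islands at 2 h divided the regions further. Islands were present with both cytokines and with IFNγ alone in 1420 regions (51.7%), with IFNγ alone but not both in 223, with both but not IFNγ alone in 164, and in neither in 938 (34.2%). In the group called in both 2 h libraries 63.7% held an island in scramble cells with IFNγ and 5.85% held a transcript start, and in the group called in neither 44.2% and 1.92%. The late regions were shorter (median 4200 bp against 6200 bp) and had fewer reads with IFNγ alone at 4 h (109.2 against 201). The part of the lower level in the missing 2 h islands was not tested.

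H3K27ac also rose with IFNγ in most of the regions kept that could be tested in the knockdown experiment. In the 188 regions kept that were called in all 6 libraries, 129 were higher with IFNγ and 2 lower over the 3 backgrounds (edgeR quasi-likelihood test, adjusted p under 0.05 over 17047 regions), where 22.7% of all regions tested were higher and 21.9% lower. That is 68.6% higher and 1.06% lower, with a median log2 fold change of 1.13 (quartiles 0.47 and 2.00), against 0.01 over all. Among regions lost with IL-4, 32 of 98 were higher and 3 lower. More normalised reads with IFNγ were found in 170 of 188 in shJunB, 168 in shCEBP-beta and 156 in scramble cells, and in 144 in all 3, where 34.6% of all regions were. The 188 are those that also had an island without IFNγ in every background, so the other regions kept had no such test. Leaving out a background left 106 to 111 higher and 2 to 4 lower, and with an offset for the called length of each region 57 (30.3%) were higher and 1 lower, where 11.98% of all regions were higher and 8.08% lower.

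Within each background the size rule gave similar shares. With IFNγ over untreated shJunB cells 162 of 297 regions called in both libraries (54.5%) were higher by the size rule, and 1 was lower, where 11.4% and 9.09% of all were. In shCEBP-beta cells it was 236 of 429 (55.0%) higher and 5 lower, where 10.5% and 9.52% of all were, and in scramble cells 221 of 404 (54.7%) higher and 7 lower, where 10.9% and 10% of all were. Measured per kb of called length, 35 (11.8%) were higher in shJunB, 48 (11.2%) in shCEBP-beta and 64 (15.8%) in scramble cells, against 2.51%, 1.96% and 2.56% of all. The setting with missing islands filled in again fixes most directions, since 1452 regions in shJunB, 1336 in shCEBP-beta and 1165 in scramble cells had an island with IFNγ only. With missing islands set to the 5th percentile, 957 of 1770 were higher and 2 lower in shJunB cells, where 14.9% and 11% of all were. In shCEBP-beta cells 1079 of 1798 were then higher and 9 lower, where 13.8% and 11.4% of all were. In scramble cells it was 900 of 1616 higher and 17 lower, where 13.9% and 11.8% of all were.

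The strongest response of these was at the 38.4 kb region near Nampt described above. It had 1741 and 47.4 normalised reads with and without IFNγ in shJunB cells, 1724 and 92.3 in shCEBP-beta cells, and 1448 and 61.6 in scramble cells (log2 fold change 4.65 ± 0.21, SE, edgeR adjusted p = 0.000453). All 3 IFNγ libraries lay above all 3 untreated libraries. Mark3, a kinase that acts on microtubule-associated proteins, had 755.4 and 60.7 reads in shJunB cells, 1115 and 68.8 in shCEBP-beta cells, and 978.4 and 75.7 in scramble cells (log2 fold change 3.80 ± 0.13, SE, edgeR adjusted p = 0.000394). A region with the promoter of Clic5, a chloride intracellular channel protein (chr17:44177001-44201800), had 728.0 and 61.6 reads in shJunB cells, 1211 and 75.8 in shCEBP-beta cells, and 940.8 and 80.0 in scramble cells (log2 fold change 3.73 ± 0.14, SE, edgeR adjusted p = 0.000395). Il2ra, the alpha chain of the interleukin-2 receptor (chr2:11685801-11701200), had 779.5 and 79.6 reads in shJunB cells, 1000.1 and 90.6 in shCEBP-beta cells, and 1034 and 108.1 in scramble cells (log2 fold change 3.36 ± 0.11, SE, edgeR adjusted p = 0.000394). The groups did not overlap in any of these regions. They were picked for the largest increases in these same libraries, so that separation is no further support. With the offset for called length the log2 fold change was 0.48 near Nampt (edgeR adjusted p = 0.0519), where the call was lost, 0.71 for Mark3 (0.0153), 0.58 for Clic5 (0.0315) and 1.44 for Il2ra (8.68e-05).

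The same Il2ra region differed between cytokine libraries. It had 316.8 and 232.7 reads with IFNγ plus IL-4 at 2 h and 4 h, and 522.5 and 1441 with IFNγ alone. Regions of Zfp536, Ralgapa2 and Frs2, and regions near Klra2, Lmo4 and Htr2a, made up the rest of the 10 largest increases, with log2 fold changes of 2.98 to 3.46. With the offset, Zfp536 (0.04, edgeR adjusted p = 0.907) and Ralgapa2 (0.50, edgeR adjusted p = 0.0564) lost their calls, and the other 4 kept theirs at 0.85 to 2.01. The region near Lmo4, a transcription cofactor, had 111.6 and 502.9 reads with both cytokines, and 218.4 and 2459 with IFNγ alone, against 2564 with IFNγ in scramble cells. At 4 h, in libraries used by the choice of regions, the Clic5 region had 1834 reads with both cytokines and 2311 with IFNγ alone. At 2 h the Clic5 region had 243.1 with both and 495.1 with IFNγ alone (2.04-fold lower, 1.74 to 2.39).

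The 2 regions that fell with IFNγ lay 5.62 kb from Nup205, a nuclear pore gene, and beside Qprt, an enzyme of NAD synthesis from tryptophan. The region near Nup205 had 58.1 and 147.9 reads with and without IFNγ in shJunB cells, 107.4 and 179.4 in shCEBP-beta cells, and 60.5 and 170.8 in scramble cells, and fell by 1.15 on the log2 scale (SE 0.21, edgeR adjusted p = 0.00921), a call lost with the offset for called length (log2 fold change -0.31, edgeR adjusted p = 0.344). The Qprt region had 114.0 and 215.2 reads in shJunB cells, 89.5 and 231.7 in shCEBP-beta cells, and 91.6 and 175.1 in scramble cells, and fell by 1.06 (SE 0.17, edgeR adjusted p = 0.00615). With an offset for called length its log2 fold change was 0.55 (adjusted p = 0.0841). Both were weak in the libraries of the choice, with 46.8 and 60.0 reads near Nup205, and 72.9 and 89.3 at Qprt, with IFNγ plus IL-4 and with IFNγ alone at 4 h.

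**Figure D4:**
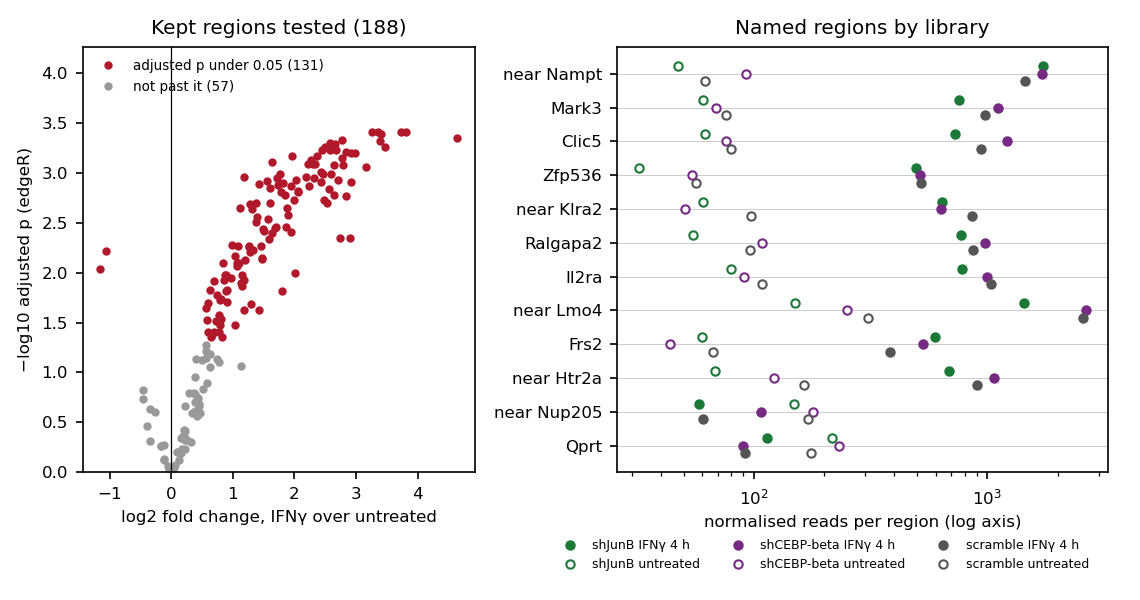
Left, edgeR log2 fold change with IFNγ against −log10 adjusted p for the 188 regions kept that were called in all 6 knockdown libraries, of which 129 rose and 2 fell. Right, normalised reads (log axis) of the 10 largest increases and the 2 decreases in each library, with IFNγ (filled) and untreated (open), where filled and open points do not overlap in any of the 12 regions. The 12 regions were picked by the test on these same libraries, so that separation is no further support.

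By edgeR neither shRNA gave a call in these regions, while DESeq2 gave 5 for shJunB. Over both states, 0 of 188 regions kept and 0 of 17047 in all passed for shJunB against scramble (edgeR, lowest adjusted p = 0.133), with 29 of the 188 (15.4%) at an unadjusted p under 0.05, against 15.7% of all. For shCEBP-beta it was also 0 of 188 and 0 of 17047 (lowest adjusted p = 0.482), with 14 (7.45%) at an unadjusted p under 0.05, against 7.94% of all. The 5 regions that DESeq2 called for shJunB were 2 higher and 3 lower, where over all regions it called 407 higher and 209 lower. For shCEBP-beta DESeq2 called 0 regions kept, and 74 higher and 1 lower over all. Median log2 fold changes over the 188 were -0.08 with shJunB and 0.01 with shCEBP-beta, against 0.01 over all regions for each. The fit had 2 residual degrees of freedom. A p that misses the threshold does not show that the shRNAs had no effect.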

How the data were processed

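H3K27ac ChIP-seq islands of 13 libraries were analysed, 1 deposited file per library. Bowtie2 2.2.6, SICER 1.1, mm10 and GRCm38 are named, per the submitters' processing notes, and the file names give a window of 200 bp, a gap of 600 bp and an FDR of 0.01. The deposited counts are raw ChIP and control reads per island, not normalised. The deposited p-value and FDR columns, and the deposited fold, a ratio of ChIP to scaled control reads, come from the authors' island calling. Islands past that threshold only are listed, and absence of an island, written as not called, is no measurement of 0. Read totals per library were solved from the fold, tested on simulated data (13 of 13 recovered).

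Region counts were scaled by median-of-ratios factors from the 14347 regions called in all 13 libraries. Counts by the size rule in the results lead with regions called in both libraries. The planned setting filled a missing island with the 5th percentile of reads per island, is given beside them, and is the one the alternatives start from. Fits used edgeR 4.0.16 in R 4.3.3 (quasi-likelihood, TMM, shRNA and IFNγ as terms, regions called in all 6 libraries, Benjamini-Hochberg), with DESeq2 1.42.0 as an alternative. For the IFNγ effect on simulated data over 17047 regions, 94 of 100 true 2-fold and 100 of 100 true 4-fold changes were called, beside 9 of 16847 unchanged regions. Intervals and figures used scipy 1.17.1 and matplotlib 3.10.9. Genes and promoters came from RefSeq (GRCm38.p6).

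Named regions were the 8 longest, the 10 with the most reads per kb with IFNγ alone at 4 h, the 8 highest and 8 lowest ratios at 2 h and 5 and 5 at 4 h with at least 100 normalised reads, the 10 largest increases and all decreases in the knockdown fit, and those touching interferon-list genes. Some results that this rule names are not reported here. Regions with an ISRE window, in chains and of other lists were named after their values were seen. The regions and lists were chosen with earlier results of these data known. The number of columns left without a sample was 0.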

Additional observations from a re-analysis of the deposited data

How the results depend on the processing

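No paired analysis was possible by replicate number because the labels give none. The knockdown test does compare IFNγ with untreated cells within each shRNA background. With 1 library per condition, depths of 14.3 to 37.4 M reads and no values below the island threshold, weak regions could not be followed across libraries, and the part of depth was not tested. The number of regions kept was 5162 when an island in untreated cells or with IL-4 alone at 4 h was allowed below 0.5 of the IFNγ reads, and 1110 (chosen after seeing the data) with a 2-fold difference from both. It was 2286 to 3207 under the 6 other ways tried. At an FDR of 1e-06 or below, islands were left in 126 regions with IL-4 alone at 2 h and, in untreated cells, in 183 with shJunB, 291 with shCEBP-beta and 272 with scramble.

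Counts by the size rule depended on how island length and missing islands were treated. With missing islands filled in they were 1043 of 1666 and 877 of 1614 higher with IFNγ alone and with both cytokines over IL-4 alone at 2 h, 56 higher and 276 lower of 1807 with both over IFNγ alone at 2 h, 114 higher and 721 lower of 2745 at 4 h, and 957 of 1770, 1079 of 1798 and 900 of 1616 higher with IFNγ in shJunB, shCEBP-beta and scramble cells. The next counts have the same denominators unless stated. Those without a share of all regions show only how far a setting moved the count. Per kb of called length, 644 regions (38.7%, against 8.18% of all) were higher with IFNγ alone over IL-4 alone at 2 h. With both cytokines over IFNγ alone at 2 h, 18 (1.00%, against 2.19% of all) were higher and 14 (0.77%, against 0.51%) lower. At 4 h 6 were higher and 181 lower with both. Per kb, with IFNγ over untreated cells, 335 were higher in shJunB, 288 in shCEBP-beta and 251 in scramble cells. Per kb in regions called in both libraries only (chosen after seeing the data), 48 of 171 were higher with IFNγ alone and 53 of 164 with both over IL-4 alone, 15 higher and 9 lower of 1420 with both over IFNγ alone at 2 h, 6 higher and 181 lower of 2745 at 4 h, and 35 of 297, 48 of 429 and 64 of 404 higher with IFNγ in shJunB, shCEBP-beta and scramble cells. With missing islands at the 25th percentile, 607 (36.4%, against 17.0% of all) were higher with IFNγ alone over IL-4 alone at 2 h. With both cytokines over IL-4 alone it was 505 (31.3%, against 13.3% of all), and with IFNγ in shJunB, shCEBP-beta and scramble cells 513, 634 and 533. With regions called in both libraries only, the counts were 104 of 171 and 85 of 164 higher over IL-4 alone, 180 of 1420 lower with both cytokines over IFNγ alone, and 162 of 297, 236 of 429 and 221 of 404 higher with IFNγ in shJunB, shCEBP-beta and scramble cells. At 3-fold, 16 (0.89%, against 2.59% of all) were higher and 84 (4.65%, against 2.88%) lower with both cytokines over IFNγ alone at 2 h. At 4 h 43 were higher and 319 lower, and 594, 711 and 551 were higher with IFNγ in shJunB, shCEBP-beta and scramble cells. With background subtracted, 586 were higher in shJunB and 579 in scramble cells.

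For the edgeR test of IFNγ, 1033 of 2048 regions were higher and 4 lower with regions called in at least 1 of 6 libraries (16.6% of all higher), and 1099 of 1448 higher and 4 lower with at least 3 (chosen after seeing the data, 23.9% of all higher). Both filled in missing islands, so the direction of the 855 regions called in every IFNγ library and no untreated one was fixed beforehand and these counts support nothing. With an offset for called length 57 were higher and 1 lower. Leaving out a background in turn gave 106 to 111 higher and 2 to 4 lower. DESeq2 called 5 regions for shJunB. With 10 kb flanks 20 interferon-list genes (18.02%) were touched, against 11.8% of all genes. The log2 ratio near Cdyl at 2 h was 0.65 per kb, and that of Qprt 0.55 with the offset, both of the opposite sign, and the cause was not tested. Of 38 values of single regions named, 17 kept direction and side of the threshold with called length taken into account, 19 kept direction only and 2 reversed. All 124 values under the other settings that can change them (depth, background, size factors, DESeq2, a higher minimum and leaving out a background) kept both.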

Other observations

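Other motif patterns were counted in the same 131 promoter windows, on both strands. The STAT6-type pattern, TTC and GAA with 4 bases between them, was in 14 (10.7%), against 6.35% of all 21263 windows. The AP-1 pattern TGANTCA was in 9 (6.87%, against 6.99%), the C/EBP pattern TTGCNNAA in 16 (12.2%, against 10.2%), the NF-kB pattern, GGG and CC with 5 bases between them, in 72 (55.0%, against 57.0%) and the PU.1 core GAGGAAG in 16 (12.2%, against 13.6%). Some of these windows belong to the same gene and overlap.

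Among windows with a GAS pattern, the region over Gpr33, a chemoattractant-like receptor gene (chr12:52023401-52038800), had 949.5 and 1090.1 normalised reads with IFNγ plus IL-4 at 2 h and 4 h, 788.1 and 1414 with IFNγ alone and 214.3 with IL-4 alone at 2 h. With IFNγ the Gpr33 region had 424.3, 279.3 and 431.9 reads in shJunB, shCEBP-beta and scramble cells, and 44.6 in untreated shJunB cells. The region over Gpr55, a lipid-sensing receptor gene, had 262.0 reads with both cytokines at 2 h, 95.5 with IFNγ alone and 74.5 with IL-4 alone.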
